A study of Zea mays with 96 samples.

Results

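The genes described here are those whose B73 RefGen_v4 identifiers are numbered closest to that of *o2*: the 150 numbers on each side of Zm00001d018971, with *o2* itself left out. Of the 300 numbers, 242 were genes in the count tables, and the 142 of them with at least 50 counts in 4 or more of the 96 libraries were taken as members, out of 46430 genes in all. The numbers of 74 members were lower than that of *o2* and those of 68 were higher. The other 100 genes stayed below the count limit, and 27 of these had no read in any library. At the limit itself, the fourth-highest count was 53 for the member just inside and 28 for the gene just outside. The rule used counts and identifiers but no genotype, although 9 members reached the limit through *o2* mutant libraries alone and 5 through O2+ libraries alone.

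RNA was measured in immature endosperm at 8, 12, and 16 DAP (days after pollination). Plants were homozygous for one of 8 genotypes and shared the inbred background W22. The O2+ genotypes were WT, *nkd1*, *nkd2*, and *nkd1 nkd2*, and the *o2* mutant genotypes were *o2* alone, its double mutants *nkd1 o2* and *nkd2 o2*, and the triple mutant *nkd1 nkd2 o2*, where *nkd1* stands for the allele *nkd1-Ds* and *nkd2* for *nkd2-null*. All were recovered by selfing a triple heterozygote, which came from crossing the *nkd1-Ds nkd2-null* double mutant with an *o2* mutant, so that both parental chromosomes around *o2* entered one family. Plants were grown in the field and self-pollinated, and each group held 4 libraries from independent ears, each library a pool of 3 endosperms.

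*O2* encodes a bZIP transcription factor of the starchy endosperm, the tissue that stores starch and zein proteins, and it activates zein genes and other genes of grain filling. A gene can differ between *o2* mutant and O2+ endosperm because it depends on the factor. A gene beside *o2* can also differ because it came from the same parental chromosome as the *o2* allele: neighbouring genes are inherited together unless a crossover falls between them, and inbred maize lines differ widely in the sequence and expression of their genes. A linked difference that depends neither on *nkd1* and *nkd2* nor on age would be present with the *o2* allele throughout. Which members show such a difference was the question put to them. Linked differences that depend on *nkd1*, *nkd2*, or age, and genes silent at some ages, would be missed. So would a gene that a crossover parted from the *o2* allele in some genotypes or ears. In these libraries the *o2* allele and the loss of O2 always occurred together, so dependence on the factor and inheritance with the allele cannot be told apart from the counts.

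Reads counted on genes ranged from 31327665 to 68052826 per library. At each timepoint the O2+ libraries were shallower than the *o2* mutant libraries, with medians of 51.4 Mreads (megareads) against 56.1 Mreads at 8 DAP, 46.3 against 50.9 Mreads at 12 DAP, and 39.7 against 48.5 Mreads at 16 DAP. The *o2* transcript itself was at 19.3 to 1080 CPM (read counts as a rate of library size, scaled by the trimmed mean of M-values, TMM) in the 48 O2+ libraries and at 0 to 1.20 CPM in the 48 *o2* mutant libraries, so no library went against its O2 label. The zein gene *fl2*, a marker of starchy endosperm, had a median of 11800 CPM in the O2+ libraries at 12 DAP. In the *o2* mutant libraries its median at that time was 0 and its highest level 0.483 CPM, so at 12 DAP it marks the tissue in the O2+ libraries only. At 16 DAP its median was 33300 CPM in O2+ and 191 CPM in *o2* mutant libraries. At 8 DAP the medians were 19.0 and 0 CPM. The other marker, *c1*, a pigment regulator of the aleurone, stayed at or under 0.936 CPM in all libraries. Positions on the assembly were not used here, so the identifier number stands in for the order of genes on the chromosome, and a stretch of numbers may run past a chromosome end.

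Each *o2* mutant genotype was compared with the O2+ genotype of the same NKD state at each timepoint, which gave 12 comparisons that share no library. A gene was called when edgeR's quasi-likelihood test gave an adjusted *P*-value under 0.05 over all genes tested and the log2 fold change (log2FC, *o2* mutant minus O2+) was above 1 in size. A gene that was called in the same direction in all 12 comparisons is said here to follow the *o2* allele. Of the 142 members, 134 were tested in all 12 comparisons, and 10 of these (7.46%) followed the *o2* allele. Over all 22848 genes tested in all 12, 26 followed it (0.114%), *o2* among them, and over those that also met the count limit of the members the share was 0.123%. Because a member may reach the count limit only in the state where it is high, the count was also taken over genes that reach it in both O2 states, where 6 of 122 members followed the allele (4.92%, beside 0.0696% of all such genes). The 4 members that this rule leaves out are Zm00001d018970, Zm00001d018998, and Zm00001d019083, which reached the limit through *o2* mutant libraries alone, and Zm00001d018954, which did so through O2+ libraries alone. The 10 members were Zm00001d018970, Zm00001d018998, Zm00001d019083, Zm00001d019094, and Zm00001d019111, which were higher in *o2* mutants, and Zm00001d018954, Zm00001d019002, Zm00001d019019, Zm00001d019054, and Zm00001d019087, which were lower. Over all genes, 5 genes (0.0219%) were higher in all 12 comparisons, and these were the 5 members just named, while 21 (0.0919%) were lower in all 12.

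The count depended on the number of libraries. With replicate 2 of every group left out, 6 members followed the *o2* allele, and with replicate 1, 3, or 4 left out, 7 did. A fit of only the 2 genotypes compared gave 6. All of these were among the 10. Under the 10 alternative fits and call rules that were run, Zm00001d018970, Zm00001d018998, Zm00001d019094, Zm00001d019054, Zm00001d019087, and Zm00001d019111 followed the allele each time, whereas Zm00001d018954 did so in 7, Zm00001d019019 in 6, Zm00001d019083 in 5, and Zm00001d019002 in 4.

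**Figure D1:**
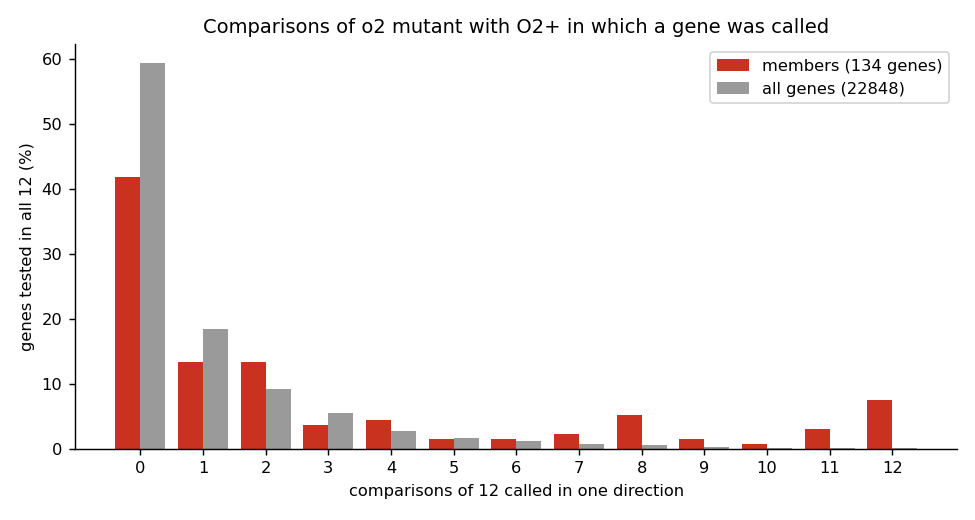
Share of genes (%) by the number of the 12 comparisons in which they were called in one direction, for the 134 members (red) and the 22848 genes (grey) tested in all 12. No call was made for 41.8% of the members and 59.3% of all genes, and 12 calls were made for 7.46% and 0.114%.

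Members with many calls were also frequent short of all 12. In 24 members (17.9%), 8 or more of the 12 comparisons were called in one direction, beside 311 of all genes (1.36%). The sign of the log2FC, called or not, was the same in all 12 comparisons in 44 of the 134 members (32.8%) and in 3.65% of all genes, a count added after the values had been seen. At a single timepoint, all 4 comparisons were called in one direction in 14 of 140 members at 8 DAP (10%, beside 0.204% of all genes), 21 of 142 at 12 DAP (14.8%, beside 1.79%), and 18 of 136 at 16 DAP (13.2%, beside 1.64%). Of the 142 members, 26 met this at one timepoint or more (18.3%, beside 2.46% of all genes). The shares here and in the next 2 paragraphs keep members that reached the count limit in 1 O2 state only. There were 9 such members through *o2* mutant libraries and 5 through O2+ libraries. The genes at large were not held to that limit, and these shares were not recounted over genes that reach it in both states.

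In single comparisons the share of members called was above that of all genes each time. At 8 DAP, 40 of 140 members were called in *o2* against WT (28.6%, beside 15.7% of all genes), 24 in *nkd1 o2* against *nkd1* (17.1%, beside 1.99%), 19 in *nkd2 o2* against *nkd2* (13.6%, beside 2.36%), and 26 in *nkd1 nkd2 o2* against *nkd1 nkd2* (18.6%, beside 6.09%). At 12 DAP the corresponding counts were 42 of 142 (29.6%, beside 9.87%), 41 (28.9%, beside 7.78%), 32 (22.5%, beside 9.50%), and 37 (26.1%, beside 7.48%). At 16 DAP they were 40 of 136 (29.4%, beside 12.5%), 48 (35.3%, beside 16.6%), 41 (30.1%, beside 14.5%), and 31 (22.8%, beside 9.19%). The members called were split between the directions, unlike the genes at large in some comparisons: in *o2* against WT at 8 DAP, 15 members were higher and 25 lower, beside 512 (2.01%) and 3480 (13.7%) of all genes.

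Averaged over the 4 NKD states, the *o2* difference was called in 23 of 140 members at 8 DAP (16.4%, beside 6.54% of all genes), 35 of 142 at 12 DAP (24.6%, beside 9.02%), and 38 of 136 at 16 DAP (27.9%, beside 13.0%). The median absolute value of this average log2FC was 0.288, 0.397, and 0.497 in the members at 8, 12, and 16 DAP, and 0.168, 0.257, and 0.328 in all genes. The same contrast for the other mutations gave no such surplus. For *nkd1*, 3, 10, and 10 members were called (2.14%, 7.04%, and 7.35%), beside 3.38%, 8.27%, and 9.37% of all genes. For *nkd2*, 1, 6, and 3 members were called (0.714%, 4.23%, and 2.21%), beside 2.03%, 4.93%, and 5.77%. The counts for *nkd2* are small and lay at 0 to 3 (8 DAP), 3 to 8 (12 DAP), and 3 to 7 (16 DAP) when one replicate number was left out. Among the 10 members that follow the *o2* allele, 3 of 60 *nkd1* and *nkd2* tests were called: Zm00001d019002 was higher at 12 DAP with *nkd1* (log2FC 1.43) and with *nkd2* (1.10), and Zm00001d019054 was lower at 16 DAP with *nkd1* (-1.09).

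**Figure D2:**
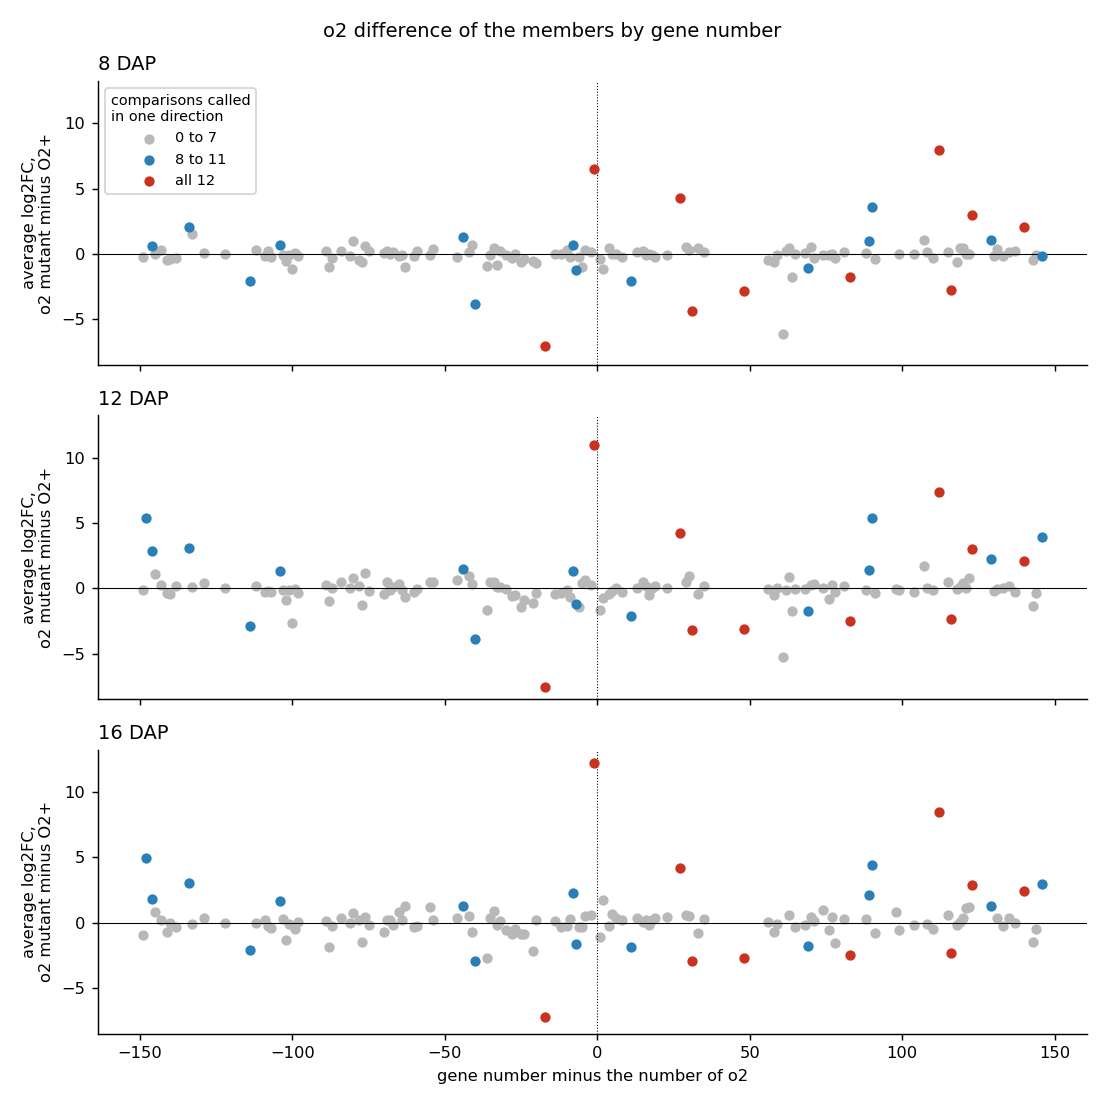
Average log2FC of *o2* mutant minus O2+ over the 4 NKD states (vertical axis) for each member by its number relative to *o2* (horizontal axis), at 8, 12, and 16 DAP. The 10 members called in all 12 comparisons (red) and the 15 called in 8 to 11 (blue) lie among the other members (grey). Some of the other members are far from 0, such as Zm00001d018935 at -2.66 at 16 DAP. Zm00001d018970, beside *o2*, is at 6.54, 10.99, and 12.26.

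Zm00001d018970, numbered directly before *o2*, had the widest separation of the 2 O2 states. At 8 DAP its lowest, median, and highest levels were 0, 0.225, and 0.828 CPM in the 16 O2+ libraries and 9.28, 25.7, and 54.5 CPM in the 16 *o2* mutant libraries. The levels at 12 DAP were 0, 0.0543, and 0.75 CPM in O2+ and 134, 232, and 305 CPM in *o2* mutants. The 16 DAP libraries had 0, 0.033, and 0.295 CPM in O2+ and 209, 302, and 437 CPM in *o2* mutants. Every *o2* mutant library was thus above every O2+ library, and the gene was nearly silent wherever *O2* was present. Its average log2FC was 6.54 ± 0.342 (SE; adjusted *P* = 4.57e-14), 10.99 ± 0.248 (adjusted *P* = 2.74e-24), and 12.26 ± 0.212 (adjusted *P* = 2.06e-27) at 8, 12, and 16 DAP. In 2 comparisons all 4 O2+ libraries had 3 counts or fewer, and set against a floor of 3 counts per library the gene was at least 3110-fold higher in *nkd2 o2* at 12 DAP and at least 5120-fold higher in *nkd1 o2* at 16 DAP. The *o2* difference varied with time (adjusted *P* = 3.78e-15), as the level rose with age in the *o2* mutants. Within 8 DAP the *o2* single mutant stood highest, at 45.2 ± 6.46 CPM (SD, n = 4), with *nkd1 o2* at 22.1 ± 10.3, *nkd2 o2* at 26.4 ± 7.52, and *nkd1 nkd2 o2* at 19.2 ± 4.06 CPM. By edgeR's F-test, the *o2* difference of this gene varied with the NKD state at 12 DAP only (adjusted *P* = 0.0412). The files do not say whether the counting used strand, so reads from an overlapping or antisense transcript would have been counted with it.

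Zm00001d018998 showed the same separation at a low level. Its lowest, median, and highest levels in O2+ libraries were 0, 0.105, and 0.287 CPM at 8 DAP, 0, 0.0621, and 0.216 CPM at 12 DAP, and 0, 0.0576, and 0.197 CPM at 16 DAP. In *o2* mutant libraries they were 1.65, 2.29, and 3.15 CPM at 8 DAP, 1.12, 1.54, and 2.46 CPM at 12 DAP, and 0.563, 1.11, and 1.63 CPM at 16 DAP. No library of one state overlapped the other state at any timepoint. The medians of both states fell with age, and the average log2FC was 4.28 ± 0.307, 4.26 ± 0.348, and 4.20 ± 0.286 (SE) at 8, 12, and 16 DAP.

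Zm00001d019083 was without a read in most O2+ libraries. At 8 DAP 15 of the 16 O2+ libraries had no read and the other had 2, whereas the *o2* mutant libraries were at 0.424, 0.905, and 1.85 CPM (lowest, median, and highest). At 16 DAP 15 O2+ libraries again had no read, and the *o2* mutant libraries were at 1.28, 3.03, and 5.82 CPM. The O2+ libraries with more than 3 reads were all *nkd1 nkd2*, at 0.248 and 0.555 CPM in replicates 1 and 2 at 12 DAP and 0.912 CPM in replicate 1 at 16 DAP, and the states overlapped at 12 DAP, when the lowest *o2* mutant library was at 0.446 CPM. In 10 of the 12 comparisons all 4 O2+ libraries had 3 counts or fewer, and against the floor the gene was at least 11.3-fold to at least 57.8-fold higher in the *o2* mutant. In *nkd1 nkd2 o2* against *nkd1 nkd2*, where the O2+ group held these libraries, the log2FC was 2.27 at 12 DAP and 2.91 at 16 DAP.

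Zm00001d019094 and Zm00001d019111 were expressed in both O2 states and were higher in *o2* mutants. Zm00001d019094 had 2.0, 3.26, and 13.0 CPM (lowest, median, and highest) in O2+ and 23.0, 26.5, and 39.8 CPM in *o2* mutants at 8 DAP. Its levels were 5.06, 7.73, and 32.2 CPM against 55.5, 74.5, and 125 CPM at 12 DAP, and 8.92, 12.7, and 35.9 CPM against 28.0, 107, and 136 CPM at 16 DAP. Both states rose with age while the average log2FC stayed at 2.99 ± 0.173, 3.05 ± 0.168, and 2.86 ± 0.145 (SE). Zm00001d019111 had medians of 1.62, 1.64, and 1.69 CPM in O2+ at 8, 12, and 16 DAP and of 6.90, 7.86, and 9.32 CPM in *o2* mutants, with average log2FCs of 2.11 ± 0.118, 2.08 ± 0.118, and 2.45 ± 0.193. For both genes the states were apart at 8 and 12 DAP and overlapped at 16 DAP, where replicate 4 of *nkd1 nkd2 o2* was low, at 28.0 and 2.01 CPM.

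Of the 5 members that were lower in every *o2* mutant, Zm00001d018954, described as a rhicadhesin receptor in the gene list that came with the study, was nearly absent from them. Its O2+ libraries were at 0.0692, 0.434, and 3.15 CPM at 8 DAP (lowest, median, and highest), 0.747, 2.40, and 5.28 CPM at 12 DAP, and 0.806, 3.80, and 11.2 CPM at 16 DAP. In the *o2* mutants, 14, 10, and 8 of the 16 libraries at the 3 timepoints had no read, and the highest level was 0.268 CPM. In 7 comparisons all 4 *o2* mutant libraries had 3 counts or fewer, and against the floor the gene was at least 7.40-fold to at least 122-fold lower. The states did not overlap at any timepoint.

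Zm00001d019054 and Zm00001d019087 also separated the 2 states in every library. Zm00001d019054 is described as methylmalonate-semialdehyde dehydrogenase, a mitochondrial enzyme that acts in the breakdown of valine. Its levels were 45.8, 71.7, and 104 CPM in O2+ and 17.6, 20.8, and 25.9 CPM in *o2* mutants at 8 DAP (lowest, median, and highest). They were 35.3, 100, and 209 CPM against 13.7, 17.0, and 25.1 CPM at 12 DAP, and 91.0, 240, and 376 CPM against 17.7, 38.5, and 90.8 CPM at 16 DAP. The gap between the states was narrow at 16 DAP, where *nkd2 o2* replicate 4 was the highest *o2* mutant library and *nkd1 nkd2* replicate 2 the lowest O2+ library. The average log2FC was -1.78 ± 0.0782, -2.49 ± 0.141, and -2.46 ± 0.0941 (SE) and differed between timepoints (adjusted *P* = 1.11e-05). Zm00001d019087, a proline-rich family protein by the same list, kept medians of 16.3, 15.3, and 18.1 CPM in O2+ and 2.32, 2.74, and 3.02 CPM in *o2* mutants, with average log2FCs of -2.75 ± 0.0909, -2.34 ± 0.0923, and -2.29 ± 0.153. Its highest *o2* mutant library was again *nkd1 nkd2 o2* replicate 4 at 16 DAP, with 10.9 CPM against 2.12 to 5.03 CPM in the other 3 libraries of that group.

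Zm00001d019002 and Zm00001d019019 had their highest levels at 8 DAP, and it was there that the states did not overlap. Zm00001d019002 was at 8.31, 14.1, and 25.1 CPM in O2+ (lowest, median, and highest) and at 0.349, 0.728, and 1.13 CPM in *o2* mutants at 8 DAP. By 16 DAP its medians had come down to 0.578 and 0.0970 CPM and the states overlapped. Its average log2FC was -4.32 ± 0.137, -3.18 ± 0.432, and -2.91 ± 0.426 (SE). Zm00001d019019 was at 34.9, 66.2, and 129 CPM in O2+ and 2.46, 9.93, and 22.2 CPM in *o2* mutants at 8 DAP, and its medians at 16 DAP were 1.85 and 0.327 CPM. Its average log2FC was -2.85 ± 0.223, -3.12 ± 0.427, and -2.68 ± 0.389.

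**Figure D3:**
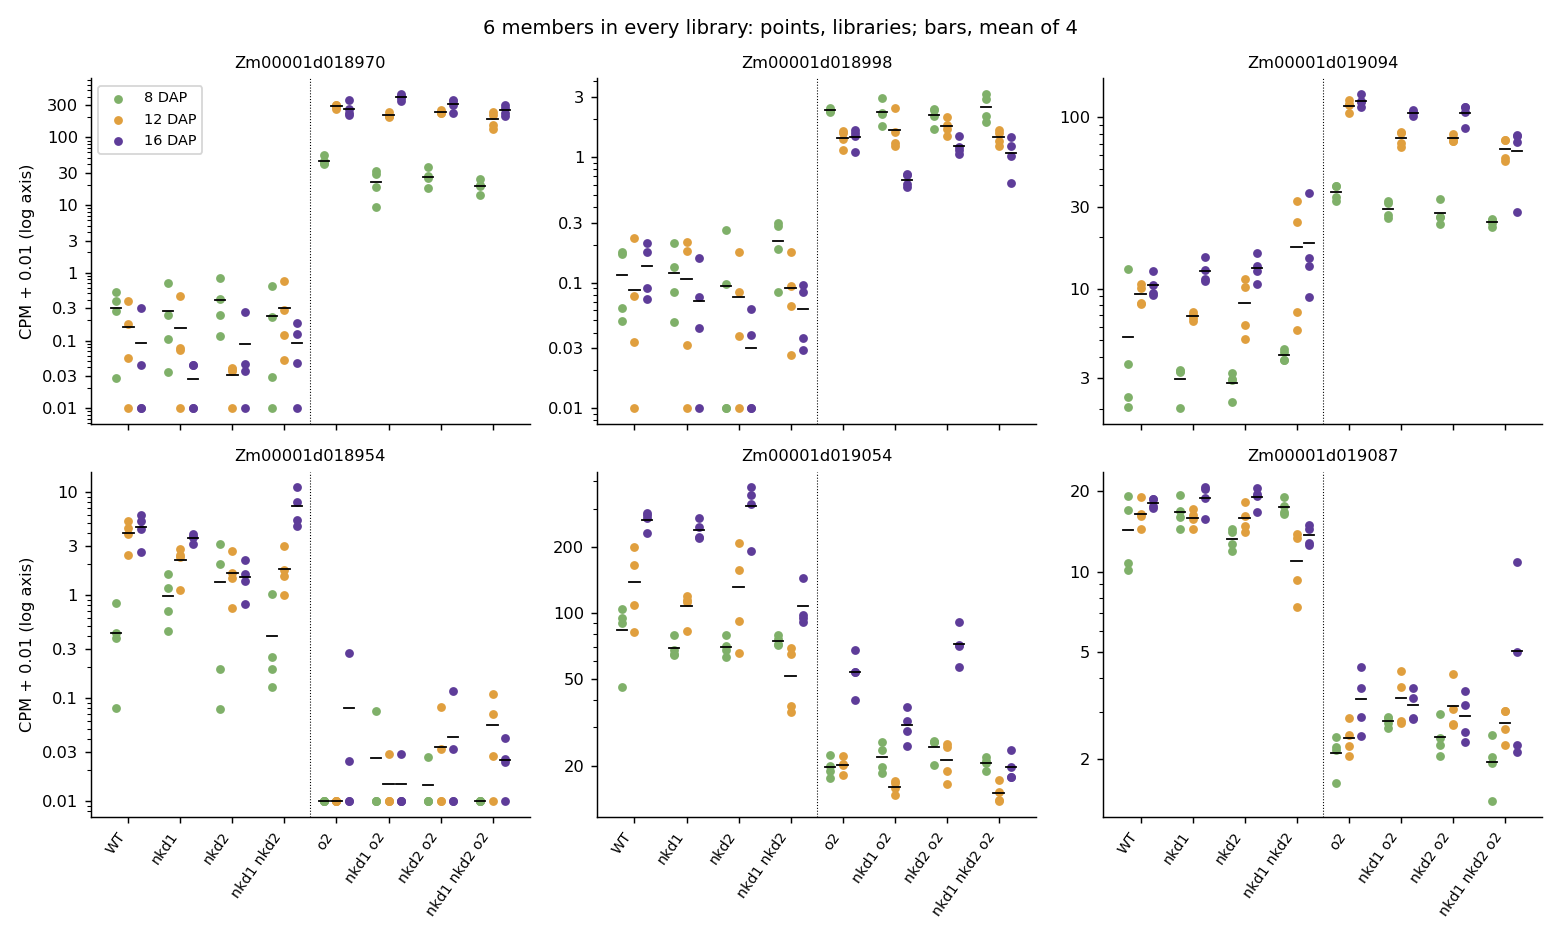
Level of 6 members that follow the *o2* allele in each of the 96 libraries, as CPM + 0.01 on a log axis, by genotype (horizontal axis) and timepoint (colour). Points are libraries, bars are means of 4, and the dotted line separates the O2+ genotypes (left) from the *o2* mutants (right). Zm00001d018970 was at or under 0.828 CPM in all O2+ libraries and at or above 9.28 CPM in all *o2* mutant libraries.

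Across all members, every *o2* mutant library lay on one side of every O2+ library in 14 of 140 members at 8 DAP (10%, beside 0.137% of all genes), 24 of 142 at 12 DAP (16.9%, beside 1.75%), and 16 of 136 at 16 DAP (11.8%, beside 1.45%). In 5 of the 134 members tested throughout (3.73%, beside 0.0525%) this held at all 3 timepoints in one direction, namely Zm00001d018954, Zm00001d018970, Zm00001d018998, Zm00001d019054, and Zm00001d019087. The first 3 of these reached the count limit only in the state where they were high. Among the members that reached it in both states, 2 of 122 were apart throughout (1.64%, beside 0.0348% of all such genes). The counts at single timepoints were not retaken in this way.

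For comparison over time, 2 genes listed by the study as possible targets of O2 were read from the same fits. The average log2FC of *bzip17* (Zm00001d046937) was -2.28, -6.06, and -3.14 at 8, 12, and 16 DAP, and that of *gbf1* (Zm00001d039065) was -1.01, -3.43, and -3.10, and both differed between timepoints (adjusted *P* = 2.66e-15 and 5.62e-21). Of the 10 members, 4 passed this test: Zm00001d018970, Zm00001d019054, Zm00001d019002 (adjusted *P* = 0.0207), and Zm00001d019087 (adjusted *P* = 0.0437). The other 6 had adjusted *P*-values from 0.213 to 1.0, and the average log2FC of Zm00001d018998, for example, was 4.28, 4.26, and 4.20. The 10 were chosen for calls at all 3 timepoints, so a difference present throughout was built into their choice. Their count therefore cannot be set against the results for *bzip17* and *gbf1*. Zm00001d018954 and Zm00001d019083 also had almost no reads in one state, which limits the test. Over all members the *o2* difference varied with time in 90 of 142 (63.4%, beside 50.6% of all genes tested). It varied with the NKD state in 63 of 140 at 8 DAP (45.0%, beside 40.3%), 31 of 142 at 12 DAP (21.8%, beside 21.4%), and 70 of 136 at 16 DAP (51.5%, beside 43.7%), shares close to those of all genes. These counts fell with fewer libraries, to 24 at 8 DAP, 11 at 12 DAP, and 37 at 16 DAP without replicate 2.

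Members called in 8 to 11 of the 12 comparisons numbered 15. Those called lower in 11 were Zm00001d018857, Zm00001d018931, Zm00001d018982, and Zm00001d019040. Zm00001d019040 is described as mitochondrial D-2-hydroxyglutarate dehydrogenase, an enzyme of lysine breakdown and related pathways in plants. Its O2+ and *o2* mutant medians were 51.2 and 22.3 CPM at 8 DAP, 136 and 44.2 CPM at 12 DAP, and 185 and 49.8 CPM at 16 DAP, and the states did not overlap at 12 and 16 DAP. The comparison not called was *o2* against WT at 8 DAP, with a log2FC of -0.82. Zm00001d018857, described as a probable carboxylesterase, had medians of 24.7 and 3.99 CPM at 12 DAP and log2FCs from -3.87 to -0.11. Zm00001d018931, described as a leucine-rich repeat extensin-like protein, a class of cell wall proteins, had medians of 0.795 and 0.0318 CPM at 12 DAP. Zm00001d018982 had medians of 1.84 and 0.455 CPM at 8 DAP, 0.971 and 0.208 CPM at 12 DAP, and 0.425 and 0.115 CPM at 16 DAP, and its states did not overlap at 8 and 12 DAP. Zm00001d018964, a guanylate-binding family protein in the list, was called lower in 8, with an average log2FC from -1.66 to -1.18 over the timepoints. The gene list that gave these descriptions was chosen by the study on these samples and annotates 8 members. It is thus no independent evidence of their direction, and the other 134 members are known here by identifier alone.

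Higher in *o2* mutants in 8 to 10 comparisons were Zm00001d018825, Zm00001d018837, Zm00001d018867, Zm00001d018927, Zm00001d018963, Zm00001d019060, Zm00001d019061, Zm00001d019100, and Zm00001d019117, and also Zm00001d018823. Zm00001d018823 was tested at 12 and 16 DAP only, and it was called in all 8 of those comparisons. No read fell on it in 14 of the 16 O2+ libraries at 12 DAP, when its *o2* mutant libraries were at 0.0583, 0.326, and 0.759 CPM (lowest, median, and highest). In some of these genes the difference was larger at the later timepoints than at 8 DAP. Zm00001d019117 had medians of 1.78 CPM in O2+ and 2.20 CPM in *o2* mutants at 8 DAP, 0.470 and 8.96 CPM at 12 DAP, and 1.72 and 12.6 CPM at 16 DAP. The average log2FC of Zm00001d018825 was 0.59, 2.86, and 1.81 at 8, 12, and 16 DAP, and that of Zm00001d018963 was 0.70, 1.34, and 2.30. All 3 differed between timepoints (adjusted *P* = 1.33e-09, 1.49e-06, and 2.25e-10).

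In Zm00001d018837 and Zm00001d018927 the comparisons that were not called were those of *nkd2 o2* with *nkd2*. The log2FC of Zm00001d018837 in these was 0.35, 0.41, and 1.46 at 8, 12, and 16 DAP, whereas in the other 9 comparisons it ranged from 2.11 to 4.97. In Zm00001d018927 single libraries of the *nkd2* and *nkd2 o2* groups stood at the level of the opposite O2 state. At 8 DAP its 4 *nkd2* libraries had 26.7, 26.9, 10.6, and 10.3 CPM, and its 4 *nkd2 o2* libraries had 29.7, 29.2, 21.5, and 7.62 CPM. The WT, *nkd1*, and *nkd1 nkd2* libraries were at 8.88 to 11.5 CPM at that time and the *o2*, *nkd1 o2*, and *nkd1 nkd2 o2* libraries at 28.3 to 36.6 CPM, so replicates 1 and 2 of *nkd2* were close to the *o2* level and replicate 4 of *nkd2 o2* was below the O2+ level. At 16 DAP the 4 *nkd2 o2* libraries were at 14.5, 8.72, 8.05, and 4.60 CPM, against 14.6 to 25.3 CPM in the other *o2* mutants. With the *nkd2* comparisons left out, 14 members rather than 10 were called in one direction in all of the remaining 9 (10.4%, beside 0.158% of all genes), an alternative chosen after the data were seen.

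Libraries of this kind were looked for over all 25 members called in 8 or more comparisons. In each member and timepoint, a library was given a position between the median of the O2+ libraries (0) and the median of the *o2* mutant libraries (1) on the log2(CPM + 0.5) scale, wherever these medians differed by at least 1, and it was counted as departing when it had moved by more than 0.25 from its own state toward the other. In most libraries few members departed. Over the 14 members shown at 12 DAP whose numbers are above that of *o2*, the median was 1 departing member per O2+ library. Against this, 10 departed in *nkd1 nkd2* replicate 1 and 9 in replicate 2. At 16 DAP, 9 of 12 departed in *nkd1 nkd2* replicate 1 and 8 of 12 in *nkd1 nkd2 o2* replicate 4, beside medians of 1 and 2 for the libraries of their O2 states. At 8 DAP, 6 of 11 departed in WT replicate 4, beside a median of 0. The 25 members were chosen for separating the O2 states, and genes numbered elsewhere were not placed in this way. Whether these libraries also departed in genes at large was not tested.

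In these libraries several members with higher numbers departed together, whereas Zm00001d018970, directly before *o2*, stayed with its own state. In *nkd1 nkd2* at 12 DAP, Zm00001d019094 was at 32.2, 24.5, 7.32, and 5.73 CPM in replicates 1 to 4, between the O2+ and *o2* mutant medians in the first pair and at the O2+ level in the second. Zm00001d019111 was at 4.99, 2.92, 1.62, and 1.52 CPM in the same libraries, and Zm00001d019087, which is lower in *o2* mutants, at 9.30, 7.38, 13.9, and 13.4 CPM. In the same libraries Zm00001d018970 was at 0.0413, 0.111, 0.268, and 0.75 CPM, within the O2+ range. At 16 DAP, *nkd1 nkd2 o2* replicate 4 was at 28.0 CPM for Zm00001d019094, 2.01 CPM for Zm00001d019111, and 10.9 CPM for Zm00001d019087, on the O2+ side of its group in each, while it held 274 CPM of Zm00001d018970, as the other 3 libraries of the group did with 209 to 302 CPM.

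On the other side of *o2*, the libraries with most departing members belonged to *nkd2* genotypes. At 12 DAP, 6 of the 9 members shown with numbers below *o2* departed in *nkd2* replicate 3, where Zm00001d018837 was at 97.3 CPM against 2.49 to 4.14 CPM in the other 3 libraries of the group, and Zm00001d018927 was at 12.9 CPM against 5.67 to 7.40 CPM. At 16 DAP, 6 of 10 departed in each of *nkd2 o2* replicates 2 and 4, and in replicate 4 Zm00001d018825 was at 0.657 CPM against 2.04 to 4.23 CPM in the others. No library passed the midpoint between the states for Zm00001d018970 or Zm00001d018998, and 1 of 96 did for Zm00001d019087, whereas 9 did for Zm00001d018927. The cause of these positions was not tested.

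**Figure D4:**
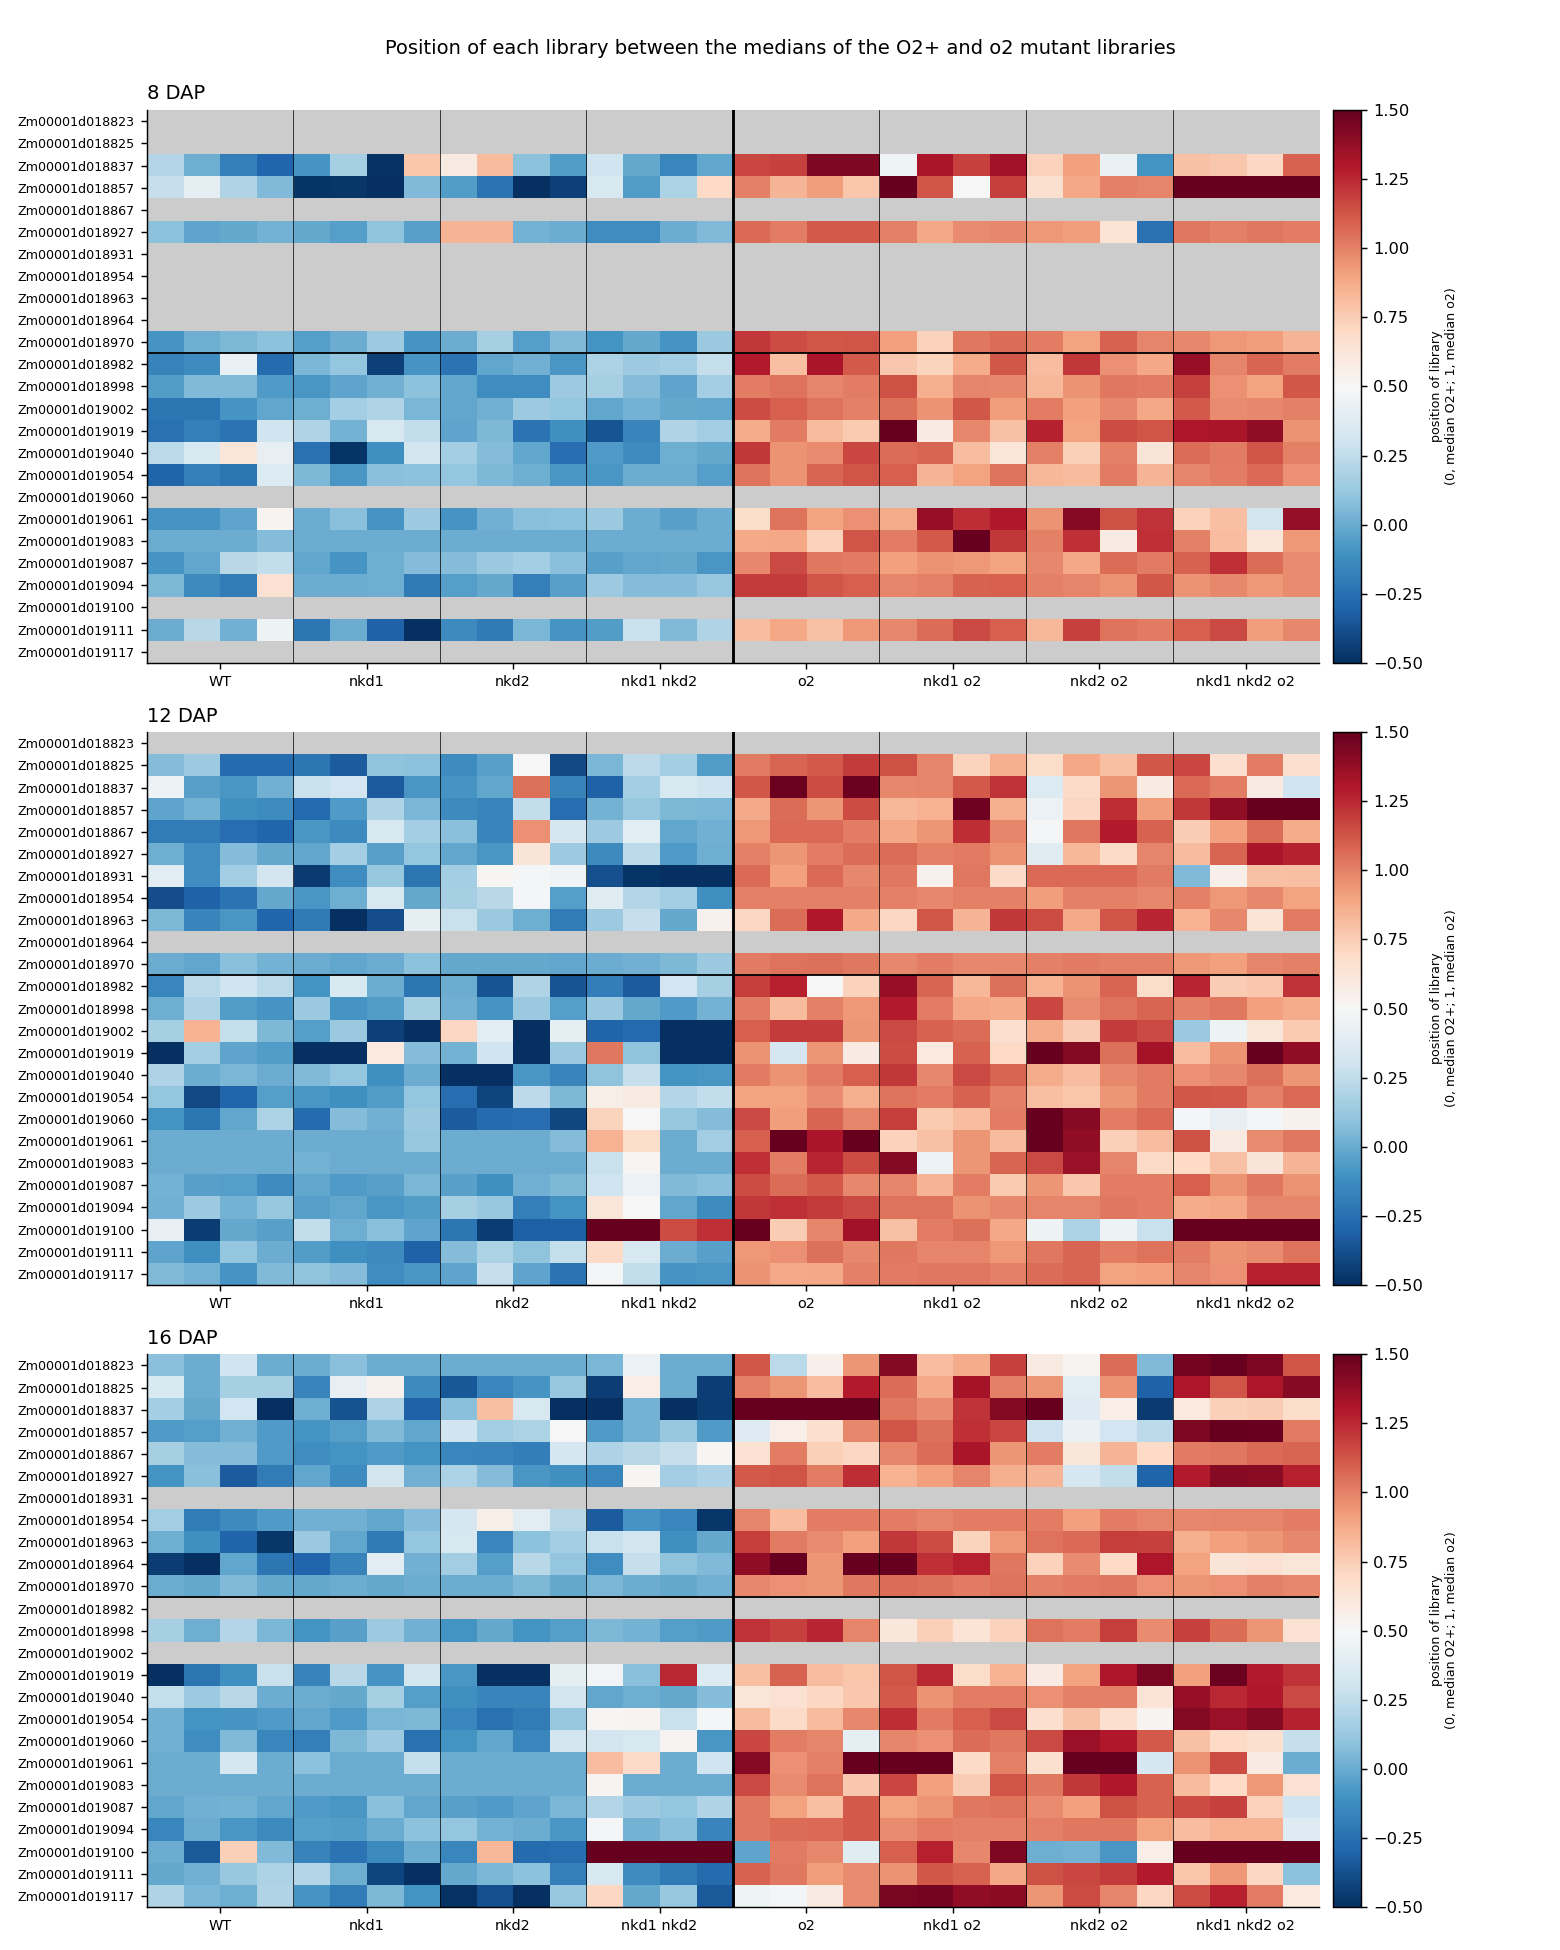
Position of each library (columns, 4 per genotype) between the median O2+ library (0, blue) and the median *o2* mutant library (1, red) for the 25 members called in 8 or more comparisons, in order of number from top to bottom. The thick vertical line divides O2+ from *o2* mutant genotypes, the horizontal line marks the place of *o2*, and grey marks members whose medians differed by less than 1 on the log2 scale. *nkd1 nkd2* replicates 1 and 2 at 12 DAP have departed from their own state in 10 and 9 of the 14 members below the line.

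Along the identifier numbers, the members that follow the *o2* allele were not spread evenly about *o2*. Of the 72 members tested throughout with lower numbers, 2 followed it (2.78%), Zm00001d018954 and Zm00001d018970, 17 and 1 numbers before *o2*. Of the 62 with higher numbers, 8 did (12.9%), from Zm00001d018998, 27 numbers after *o2*, to Zm00001d019111, 140 after. The bin of 101 to 150 numbers after *o2* held 4 of 21 (19.0%). Members called in 8 or more comparisons were closer to even, with 10 of the 72 (13.9%) and 14 of the 62 (22.6%). Whether the 2 sides differ was not tested. Beyond these 150 numbers and out to 600, 3 of 171 genes after *o2* followed the allele (1.75%), each lower in *o2* mutants, and 0 of 206 before it did. Calls in 8 or more comparisons were made for 24 of the 171 (14.0%) and for 1 of the 206 (0.485%). Without the limit on the fold change, 4 and 0 genes followed the allele in these stretches, and 13 members did. The share of all genes without that limit is not given here, so these counts are no result about the members. The same rule applied to the 150 numbers on each side of *nkd1* and *nkd2* found 0 of 137 and 0 of 125 genes that follow the *o2* allele, with 3 genes in each called in 8 or more comparisons (2.19% and 2.40%).

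**Figure D5:**
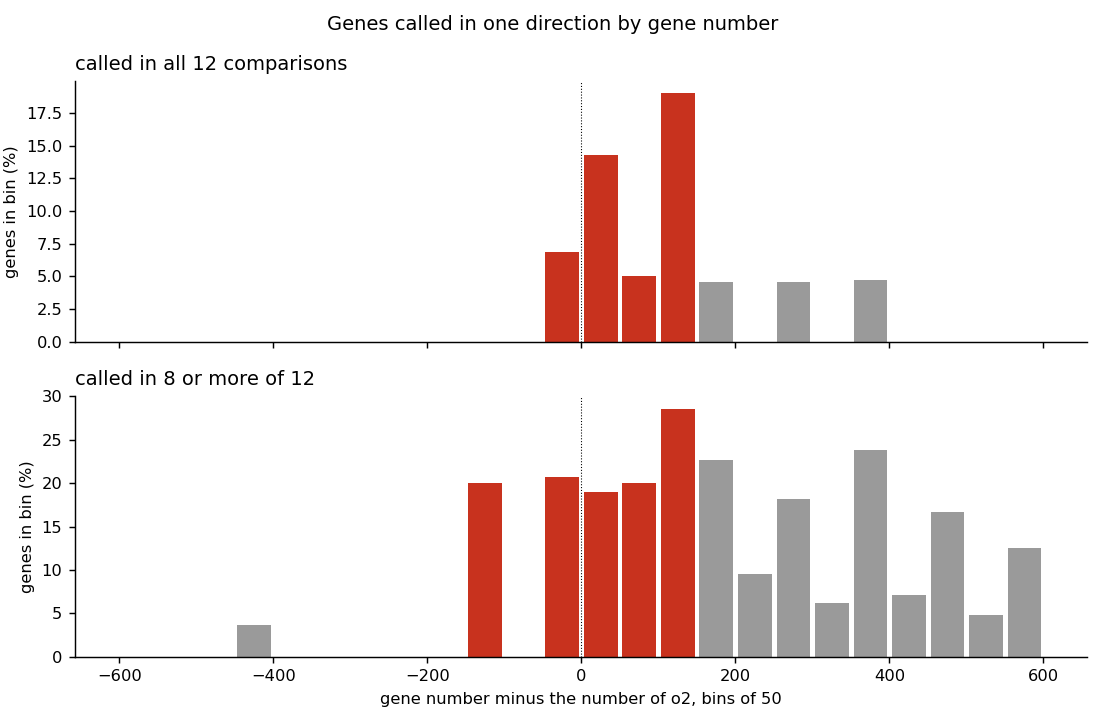
Share of genes (%) in bins of 50 identifier numbers from 600 before to 600 after *o2* that were called in one direction in all 12 comparisons (top) and in 8 or more (bottom), for genes tested throughout that meet the count limit. Bins that hold the members are red. The bin of 101 to 150 after *o2* is highest in both, at 19.0% and 28.6%, and the bins before *o2* that lie beyond the members hold 0 and 1 such genes.

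The members nearest to *o2* other than Zm00001d018970 did not share its pattern. The 4 nearest lower numbers were Zm00001d018966, Zm00001d018967, Zm00001d018969, and Zm00001d018970, and the 4 nearest higher numbers Zm00001d018972, Zm00001d018973, Zm00001d018975, and Zm00001d018976. Zm00001d018967 and Zm00001d018969 were called in none of the 12 comparisons but had small positive averages, of 0.29, 0.63, and 0.50 and of 0.15, 0.30, and 0.62 at 8, 12, and 16 DAP, with adjusted *P*-values from 7.51e-14 to 0.00791. Zm00001d018969 had medians of 105 and 134 CPM in O2+ and *o2* mutants at 12 DAP, and its ranges of 70.9 to 125 and 91.9 to 155 CPM overlapped. Zm00001d018972, directly after *o2*, was called lower in 5 comparisons, and its medians were 1.41 and 0.408 CPM at 12 DAP. Zm00001d018975 and Zm00001d018976 were not called in any.

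The 3 members with the highest mean CPM were Zm00001d018830, Zm00001d018957, and Zm00001d018896, and none of the 12 comparisons was called in any of them. Zm00001d018957 had medians of 676 and 672 CPM in O2+ and *o2* mutants at 8 DAP, and its log2FCs ranged from -0.52 to 0.47. Zm00001d018896 had medians of 513 and 600 CPM, and log2FCs from -0.44 to 0.43. Zm00001d018830 varied widely within both states, from 544 to 1890 CPM in O2+ and from 232 to 1550 CPM in *o2* mutants at 8 DAP.

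Calls in opposite directions were made in 12 of the 142 members (8.45%), beside 6.96% of all genes. Zm00001d019006, with a place 35 numbers after *o2*, differed between groups but not by O2 state. Its WT level at 12 DAP was 0.229 ± 0.12 CPM and its *nkd1 o2* level 0.281 ± 0.0761 CPM (SD, n = 4), whereas its means in the other 6 genotypes were between 0.705 and 1.18 CPM. It was therefore called higher in *o2* against WT at all 3 timepoints, with log2FCs of 1.94, 2.18, and 1.86, and lower in *nkd1 o2* against *nkd1*, with log2FCs of -1.42, -1.32, and -1.35. Its WT means at 8 and 16 DAP were 0.377 ± 0.323 and 0.327 ± 0.245 CPM, and those of *nkd1 o2* were 0.337 ± 0.0226 and 0.309 ± 0.11 CPM. The *nkd1* libraries were split. Replicates 1 to 4 had 0.362, 0.499, 1.34, and 1.43 CPM at 8 DAP and 0.46, 0.319, 1.24, and 0.804 CPM at 12 DAP. At 16 DAP they had 0.281, 0.266, 0.817, and 1.8 CPM. The calls against *nkd1* thus rest mainly on its replicates 3 and 4. Zm00001d018966 fell in the *o2* single mutant at each timepoint (log2FC against WT -1.33, -1.48, and -1.53) and, against *nkd1 nkd2*, was lower in *nkd1 nkd2 o2* at 8 DAP (-1.99) and higher at 12 and 16 DAP (2.35 and 1.35). The triple mutant held 9.87, 6.07, 31.8, and 24.1 CPM of it at 12 DAP, against 2.66 to 5.41 CPM in *nkd1 nkd2*. Zm00001d018822 and Zm00001d019101 also had calls in both directions, with log2FCs from -2.24 to 1.53 and from -1.92 to 1.49.

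Zm00001d019032, 61 numbers after *o2*, was tested at 8 and 12 DAP only and was called lower in 7 of those 8 comparisons. At 8 DAP it was at 6.91, 20.3, and 70.3 CPM in O2+ libraries (lowest, median, and highest) and at 0.0798, 0.257, and 1.26 CPM in *o2* mutants, without overlap. By 16 DAP 15 of the 16 O2+ libraries and all 16 *o2* mutant libraries had no read of it. It was chosen for mention after its values were seen.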

How the data were processed

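RNA-seq of 96 endosperm libraries was deposited by the authors as raw counts of reads per gene, made with HISAT2 2.1.0, SAMtools 1.9, and HTSeq 0.11.1 on B73 RefGen_v4. StringTie 1.3.6 is also in the submitters' processing notes. W22 reads were thus placed on B73 gene models, and reads that differ from B73 may be lost unequally between alleles. The counting mode and strand setting are not given in the sources used here. Rows naming no gene held 13.4 to 29.0% of counts and were left out.

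Each timepoint (32 libraries) was fitted with edgeR 4.0.16 (R 4.3.3, limma 3.58.1) by the quasi-likelihood test, with TMM scaling, the default low-count filter, 1 term per genotype, and Benjamini-Hochberg adjustment over all genes tested. A call needed a log2FC beyond 1 in either direction together with an adjusted *P*-value below 0.05. Contrasts were the 12 *o2* comparisons, the average effect of each mutation, an F-test of the *o2* effect across NKD states, and, over all 96 libraries, an F-test across timepoints. Deposited counts were not otherwise changed, and CPM are TMM-scaled. Fitted log2FCs of genes with almost no reads in one group depend on edgeR's prior count, so a floor of 3 counts per library was used for their folds. Tables were handled with Python 3.11.15, numpy 2.4.6, and pandas 2.3.3, and plots were drawn with matplotlib 3.10.9. Tested on simulated data, 186 of 200 genes changed 4-fold in all 4 NKD states at 12 DAP were recovered among 24504, with 0 unchanged genes called. For a 4-fold change in 1 NKD state, the F-test across states recovered 181 of 200 and called 18 unchanged genes. For a change at 16 DAP only, the F-test across timepoints recovered 198 of 200 and called 11 unchanged genes. The rule of 12 comparisons was not simulated. Depth ranged from 31327665 to 68052826 reads. Floors cover counting error only.

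Genes named in the text were the members called in all 12 comparisons, up to 10 called in 8 to 11 (by the smallest absolute log2FC), the 4 nearest on each side of *o2*, the 3 with the highest mean CPM, and up to 4 called in opposite directions. Zm00001d018857, Zm00001d018867, Zm00001d018927, Zm00001d019060, Zm00001d019100, and Zm00001d019032 were added after their values were seen. The members and lists were chosen with earlier results of these data known. Gene descriptions came from the study's tables, *fl2*, *c1*, and *o2* were the only tissue markers matched, and promoter sequences were not used here. Alternatives were DESeq2 1.42.0, its size factors, no low-count filter, a replicate block, a fit of only the groups compared, no fold limit, other member rules, and each replicate left out. Within a timepoint, same-numbered libraries of an *o2* mutant genotype and its O2+ genotype did not deviate together. Their correlations ran from -0.387 to 0.333 over 48 pairs, so the numbers were not used as pairs. Whether libraries of the same genotype and number at different timepoints are related was not tested. The 3 timepoints may therefore not be independent.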

Additional observations from a re-analysis of the deposited data

Results flagged for a closer look

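Among the 240 groups of 4 libraries of the 10 members that follow the *o2* allele, 18 held a library far from the other 3 (its gap to the nearest of them took up most of the range, past the critical value of Dixon). By chance, that value flags about 1 in 20 groups of normally distributed values. The rate does not hold for groups with almost no reads, so it cannot be set against these 18. Many of the flagged libraries were near 0: Zm00001d018970 at 0.295 CPM in WT replicate 3 at 16 DAP, 0.0 CPM in *nkd2* replicate 4 at 12 DAP, and 0.252 CPM in *nkd2* replicate 3 at 16 DAP, and Zm00001d018954 in replicate 2 of *o2* at 16 DAP (0.268 CPM), of *nkd1 o2* at 8, 12, and 16 DAP (0.065, 0.0186, and 0.0189 CPM), and of *nkd2 o2* at 8 DAP (0.0171 CPM). Zm00001d019083 stood out at 0.0398 CPM in WT replicate 4 at 8 DAP, 0.0209 CPM in *nkd1* replicate 1 at 12 DAP, and 0.912 CPM in *nkd1 nkd2* replicate 1 at 16 DAP, where the other 3 libraries of each group had no read.

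Other libraries stood out at higher levels. Zm00001d019019 was low in WT replicate 4 at 8 DAP (37.3 CPM, others 91.7 to 106 CPM), high in WT replicate 1 at 12 DAP (31.7 CPM, others 4.27 to 5.72 CPM), and low in *o2* replicate 2 at 16 DAP (0.249 CPM). Zm00001d019094 was low in *nkd1* replicate 4 at 8 DAP (2.0 CPM) and in *nkd1 nkd2 o2* replicate 4 at 16 DAP (28.0 CPM, others 71.4 to 78.2 CPM). Zm00001d019054 was low in *nkd2 o2* replicate 3 at 8 DAP (20.1 CPM) and high in *nkd1 nkd2* replicate 3 at 16 DAP (145 CPM, others 91.0 to 98.2 CPM).

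The *o2* effect differed between NKD states in 10 of 30 edgeR F-tests on these members, measured here by the range of the 4 log2FCs. Over all genes, the same test was passed by 40.3%, 21.4%, and 43.7% at 8, 12, and 16 DAP, so this count is no surplus. At 8 DAP the range was 1.5 for Zm00001d019002 (adjusted *P* = 0.00674) and 1.47 for Zm00001d019111 (adjusted *P* = 0.00453). At 12 DAP it was 4.11 for Zm00001d018970 (adjusted *P* = 0.0412), 5.43 for Zm00001d018954 (adjusted *P* = 0.0227), 7.53 for Zm00001d019083 (adjusted *P* = 0.0046), and 1.75 for Zm00001d019094 (adjusted *P* = 0.0162). At 16 DAP it was 7.77 for Zm00001d019083 (adjusted *P* = 0.00616), 1.78 for Zm00001d019094 (adjusted *P* = 0.00344), 0.88 for Zm00001d019054 (adjusted *P* = 0.0304), and 1.28 for Zm00001d019087 (adjusted *P* = 0.043). The smallest effects of Zm00001d019083 and Zm00001d019094 were both in *nkd1 nkd2 o2* against *nkd1 nkd2*. Between timepoints, the average *o2* effect differed in 4 of 10 members, by 5.72 in Zm00001d018970, 1.41 in Zm00001d019002, 0.71 in Zm00001d019054, and 0.46 in Zm00001d019087. It differed in 50.6% of all genes tested. Ranges of genes with almost no reads in one state rest on the prior count of the fit.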

How the results depend on the processing

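Against 10 members that follow the *o2* allele, a fit of only the groups compared gave 6, a rule needing the count limit in both O2 states gave 6 of 122, and a window of 75 numbers gave 5 of 72. Leaving out one replicate number gave 6 to 7, and the replicate block gave 9. The block moved no other count by over 1.5 times. Without a fold limit, members called in all 4 comparisons rose to 38 at 12 DAP and 34 at 16 DAP, and calls summed over the 4 comparisons rose from 109 to 217, 152 to 270, and 160 to 304 at 8, 12, and 16 DAP. Shares of all genes without the limit are not given here, so these rises are no result about the members. For *nkd2*, 1 member at 8 DAP became 2 with DESeq2 and 2 with its size factors, and with a replicate left out the counts lay at 0 to 3 (8 DAP), 3 to 8 (12 DAP), and 3 to 7 (16 DAP). Members whose *o2* effect differed between NKD states ranged from 24 to 56, 11 to 23, and 36 to 69 with a replicate left out, at 8, 12, and 16 DAP. These fits held fewer libraries. In all, 151 counts under alternatives stayed within 1.5 times the main count and 25 did not.

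Average log2FCs of named members changed sign in 10 refits, none of them called, and kept their sign and their side of the threshold in 762. At 8 DAP, Zm00001d018976 (-0.01) became 0.01 with no low-count filter. With one replicate left out at 8 DAP, Zm00001d018976 ranged from -0.05 to 0.02 (0.00, 0.01, and 0.02 without replicates 1, 2, and 4), Zm00001d019117 from -0.43 to 0.12 (without replicate 1), Zm00001d018957 from -0.04 (without replicate 1) to 0.04, and Zm00001d019006 from -0.02 (without replicate 2) to 0.31. At 12 DAP the ranges were -1.19 to 0.44 for Zm00001d018973, -0.45 to 0.40 for Zm00001d019101, and -0.29 to 0.03 for Zm00001d018822, each highest without replicate 3. Calls changed in 4 refits with a replicate left out. Zm00001d018966 at 8 DAP (-0.98) was called without replicates 1 and 2 (-1.09 and -1.03). At 16 DAP, Zm00001d018972 (-1.10) was not called without replicate 2 (-0.89), nor Zm00001d018973 (1.76) without replicate 3 (1.22, adjusted *P* = 0.0687). The cause was not tested. Depth limits members near 0 in one state, whose folds are bounds.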
